A study of Rattus norvegicus with 42 samples.

Results

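Solute carriers are membrane proteins that move ions, sugars, amino acids and organic molecules across cell membranes. The genes described here are those of 10 families that do much of the transport work of the kidney: Slc4 (bicarbonate), Slc5 (sodium-coupled sugars and polyols), Slc6 and Slc7 (amino acids and related molecules), Slc9 (sodium for protons), Slc12 (cations with chloride), Slc13 (sulfate and carboxylates), Slc22 (organic ions), Slc26 (anions) and Slc34 (phosphate). They were chosen by gene symbol alone, and 94 of the 14218 genes on the array fitted. Of these 94, the names of Slc4a1ap, an adaptor protein, and Slc7a6os, a gene on the opposite strand of Slc7a6, show that these 2 are not transporters. The 94 genes had 118 probe sets, several for 19 of them, and of these the brightest over all arrays was used.

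The tissue was metanephric mesenchyme of the rat embryo at embryonic day 13.5, freed from the ureteric bud with trypsin and DNase. It was taken fresh, or grown on collagen-coated filters without inducer for 1 or 2 days (control), or with LIF, NGAL or the ANX fraction for 1, 2, 3, 4, 5 or 7 days. LIF is leukemia inhibitory factor, a cytokine of the interleukin-6 family, and NGAL is a lipocalin that binds iron-carrying siderophores. What the ANX fraction contains, and the rat strain, are not given in the sources used here. All cultures, controls included, held insulin, transferrin, selenium, dexamethasone, prostaglandin, T3, FGF and TGF, so no cultured group shows the tissue without these factors. Fresh tissue was not cultured, so culture and these factors cannot be told apart in comparisons with it. The 21 groups had 2 biological replicates each, and each of the 42 arrays measured the RNA of whole explants. Fewer cells of a type and less RNA per cell cannot be told apart in such samples.

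In the mature nephron these carriers divide the work by segment. The proximal tubule reclaims glucose, phosphate, amino acids and bicarbonate and secretes organic anions and cations. The thick ascending limb takes up salt with potassium through Slc12a1, the distal convoluted tubule through Slc12a3, and the collecting duct exchanges acid and base. Other members are found in nearly all cells, where they set cell pH and volume, import amino acids for growth, or gather osmolytes, the small organic molecules that balance a high salt concentration outside the cell. Uninduced metanephric mesenchyme has no tubules. When induced, it turns into renal vesicles and then into the segments of the nephron.

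Levels are given as log2 of the deposited intensity, and a level of 5.79, the 40th percentile of all values, stands for background. The level of one gene is not set against that of another, because probe sets differ in their response. Differences come from a limma model over all 42 arrays, with p-values adjusted over 11388 genes by the Benjamini-Hochberg method, and a gene was called at an adjusted p under 0.05. Where a group mean lay below background, the difference under the full model is followed by a floored one, for which such means were set to background; values under other settings are not floored. Array medians ran from 83.3 to 88.4 in intensity, and the 2 replicates of a group correlated at 0.936 to 0.995 over all genes, lowest for LIF on day 7. The 6 listed nephron progenitor genes on the array were all above background on some array, and their summed intensity in fresh tissue was 7654 and 8487. Of 8 ureteric bud and collecting duct markers on the array, 5 had a group mean above background in some group. Aqp2 and Calb1 were below background on every array. A spike-in control that reports the relative signal of the 3' and 5' ends (dap) varied between arrays, from a group mean of 0.86 to 2.00 on the log2 scale.

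Of the 94 genes, 58 were above background in at least 1 group, which is 61.7% against 80.1% of all genes on the array. Of these 58, 43 were above it in every group and 15 in some groups only. The 15 passed the filter through the groups where they were high, so they had to differ between groups. Slc12a1, Slc5a11, Slc7a11, Slc22a23 and Slc34a1 are among the 15, so their calls below are not independent of the filter. The same holds for Slc9a9 and Slc6a4, which enter counts below. The other 36 stayed below background in all 21 groups. By family, the members above background in any group were 7 of 8 for Slc4, 5 of 8 for Slc5, 9 of 16 for Slc6, 10 of 15 for Slc7, 4 of 7 for Slc9, 7 of 8 for Slc12, 2 of 5 for Slc13, 8 of 16 for Slc22, 4 of 8 for Slc26 and 2 of 3 for Slc34. The distance between the lowest and the highest group mean had a median of 0.61, against 0.73 for all genes above background. It was under 0.5 for 18 of the 58, and 24.1% of all genes above background had so small a range. It reached 1 for 12 of the 58, against 31.2% of all genes, and 2 for 7 of the 58, against 9.05% of all genes. Those 7 were Slc12a1, Slc5a3, Slc7a3, Slc7a7, Slc5a11, Slc7a11 and Slc6a6.

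**Figure D1:**
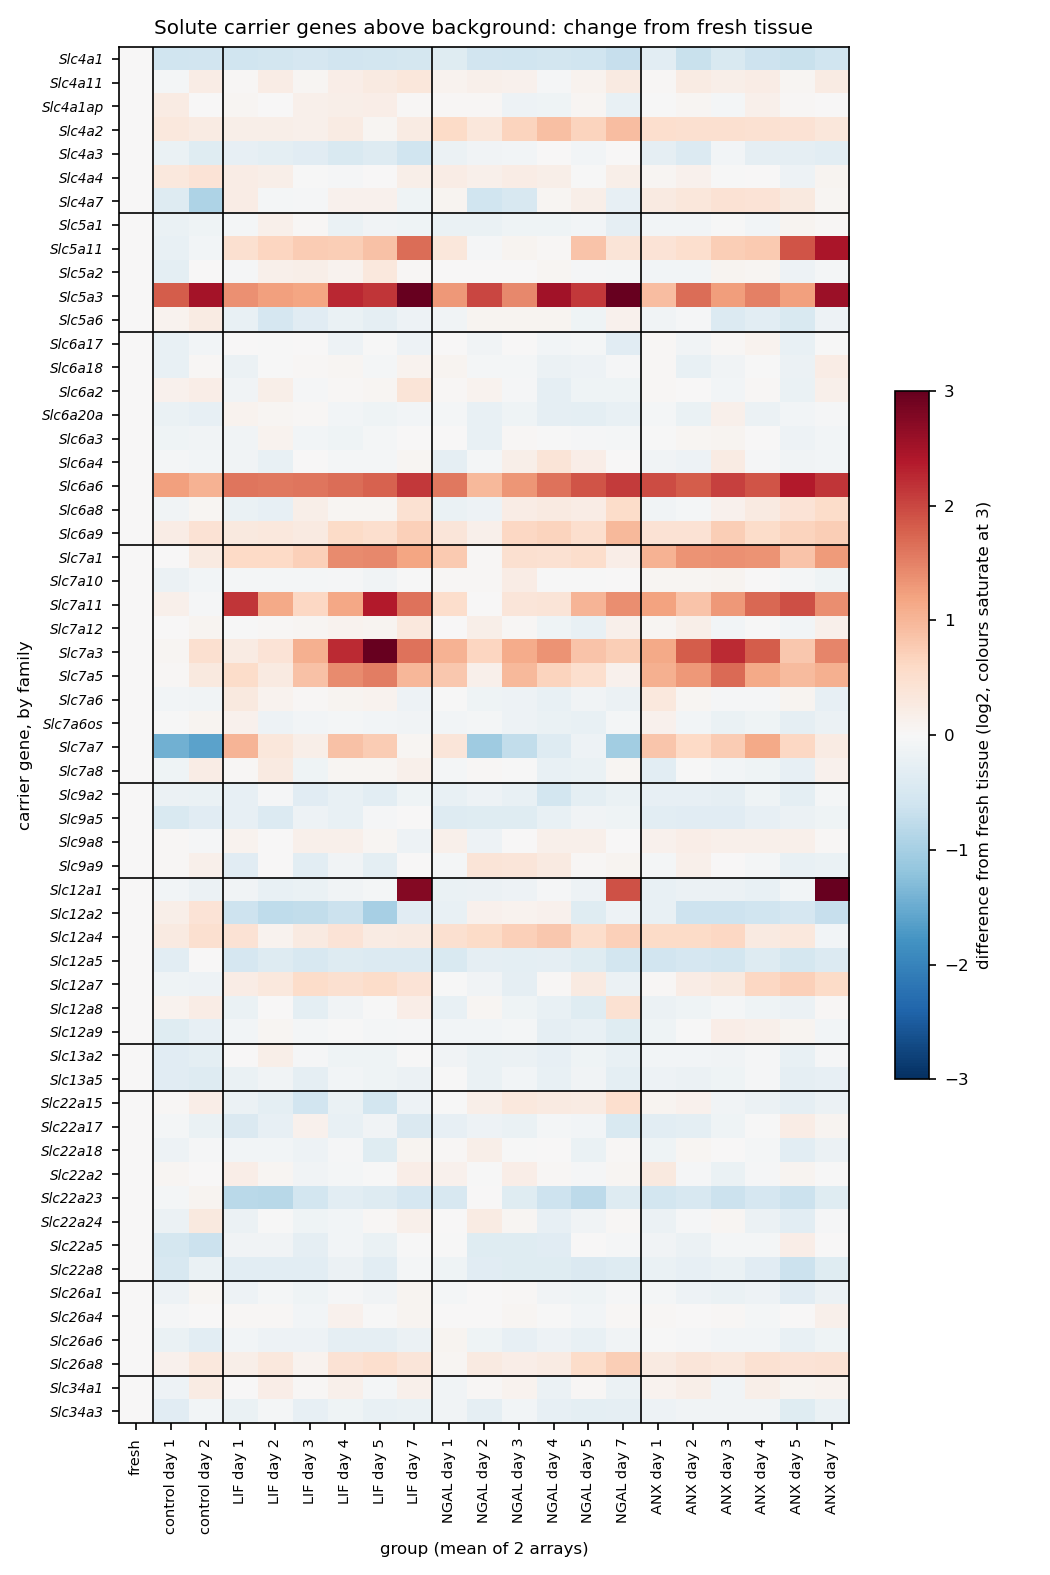
Difference of the group mean from fresh tissue, on the log2 scale, for the 58 solute carrier genes above background (rows, by family) in 21 groups (columns, each a mean of 2 arrays). Most rows stay pale, while Slc5a3 and Slc6a6 are higher in all cultured groups and Slc12a1 stands out on day 7 alone.

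Most genes of the proximal tubule were near or below background. Of 31 listed, 26 were on the array, 12 of them never above background, and the other 14 had a median range over the groups of 0.50. Of these 14, 9 exceeded background by less than 1 on the log2 scale even in their highest group. On the probe sets used, Slc7a7 was the 1 with a range of at least 1. Slc34a1, the main phosphate carrier of the proximal brush border, lay between 5.38 and 5.97 on all 42 arrays, with a median of 5.69. Slc5a2, which reabsorbs most filtered glucose, lay between 5.83 and 6.53 with a median of 6.21. Slc22a8, an uptake carrier for organic anions, lay between 5.72 and 6.60, also with a median of 6.21. Slc5a2 and Slc22a8 had group means just above background in all 21 groups, and Slc34a1 in 6 of them. The other probe sets of Slc22a8 and Slc34a1 were below background in every group, with highest group means of 4.48 and 5.46.

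Slc22a6, the other main organic anion carrier, and Slc9a3, the sodium-proton exchanger of the brush border, were never above background. Slc22a6 ran from 4.73 to 5.56. Slc9a3 ran from 3.77 to 4.93, and its 2 highest arrays were the replicates numbered 2 of ANX and LIF on day 7 (4.93 and 4.59). Slc4a4, the basolateral bicarbonate carrier, was above background on all arrays, from 6.34 to 7.26 with a median of 6.73. The range of its group means was 0.56. Its other probe set had a highest group mean of 7.16 and a wider range of 1.51, and the 2 correlated at r 0.60 over the 21 groups. None of the 14 proximal tubule members tested was called between late and early induced culture, or between day 7 and fresh tissue. The medians of the 14 were -0.05 and -0.03 and those of all genes were -0.03 and -0.04. Some of the 14 were called in other comparisons, given here with the share of all genes called in that direction. On control day 2, 2 were lower than in fresh tissue (12.7%). Against controls, 3 were higher with LIF (11.4%) and 2 with ANX (11.2%). Between inducers, 2 were higher with LIF than with NGAL (21.5%) and 3 lower with NGAL than with ANX (22.2%). Slc7a7, described further on, was among them and reached a group mean of 9.39.

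Further along the nephron, Slc12a3, the thiazide-sensitive salt carrier of the distal convoluted tubule, lay between 4.53 and 5.19, below background throughout. Slc26a4, an anion exchanger of intercalated cells, lay between 5.93 and 6.29 on all arrays. Of 10 listed genes of the loop, distal tubule and collecting duct, 7 were on the array. Of these, 5 were above background in some group, and 4 of the 5 in every group. On the probe sets used, Slc12a1 was the 1 with a range of at least 1.

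Slc12a1, the furosemide-sensitive sodium-potassium-chloride carrier of the thick ascending limb, appeared on day 7. On the 36 arrays taken before day 7 its level lay between 3.12 and 3.58. On day 7 it was 3.97 and 8.63 with LIF, 3.83 and 7.06 with NGAL, and 5.15 and 8.95 with ANX, for replicates 1 and 2 in that order. All 6 arrays of day 7 thus exceeded every earlier array, but 3 of the 6 remained below background, all of them numbered 1.

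Slc12a1 passed the filter through LIF and ANX on day 7, the 2 groups with a mean above background. The rise of Slc12a1 was called in 3 comparisons, each of which includes day 7, and always with few arrays carrying it. From day 1 to day 7 with ANX it was 3.74 (SE 0.99, adjusted p 0.0128 by limma, floored 1.27). That call ended when either ANX array of day 1 was left out. It also ended without the second ANX array of day 7, where the difference became 1.84. Against fresh tissue, the mean of the 3 inducers on day 7 was higher by 2.73 (SE 0.81, adjusted p 0.0108 by limma, floored 0.59), a call that ended without either of the 2 fresh arrays. Between late (days 5 and 7) and early (days 1 and 2) induced cultures the difference was 1.5 (SE 0.40, adjusted p 0.0062 by limma, floored 0.30), and 0.09 without day 7. With the day 7 arrays numbered 2 left out, the last 2 differences shrank to 0.78 and 0.52 and were still called, at levels that all lay below background.

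The day 7 arrays numbered 2 also had the higher spike-in 3'/5' ratio, 2.30 against 1.19 for LIF, 1.97 against 1.32 for NGAL and 2.20 against 1.17 for ANX. With that ratio in the model, the rise of Slc12a1 with ANX was 2.81 and the rise against fresh tissue 2.03, both still called. The same arrays were higher in other tubule genes: of 10 measured, 8 were higher in replicate 2 with LIF, 8 with NGAL and 7 with ANX, by a median of 1.89, 1.41 and 0.17 on the log2 scale. The part of these in the result was not tested. Across the 21 group means, the genes whose pattern was most like that of Slc12a1 were Tfcp2l1 (Pearson r 0.984), C5h1orf210 (r 0.983), Pdzk1 (r 0.982), Mal2 (r 0.978) and Scin (r 0.969), correlations that rest on the 3 groups of day 7. Tfcp2l1 is a transcription factor of distal nephron and collecting duct epithelium, and Pdzk1 is a scaffold protein of the proximal brush border. Tfcp2l1 was 4.39 and 8.76 with LIF, 4.76 and 7.42 with NGAL, and 6.92 and 8.58 with ANX on day 7, so it too was higher in each replicate 2. Umod, the most abundant protein of the thick ascending limb, stayed between 4.92 and 5.21 on the 6 arrays, and Kcnj1, the apical potassium channel of that segment, between 3.69 and 4.72, both below background.

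**Figure D2:**
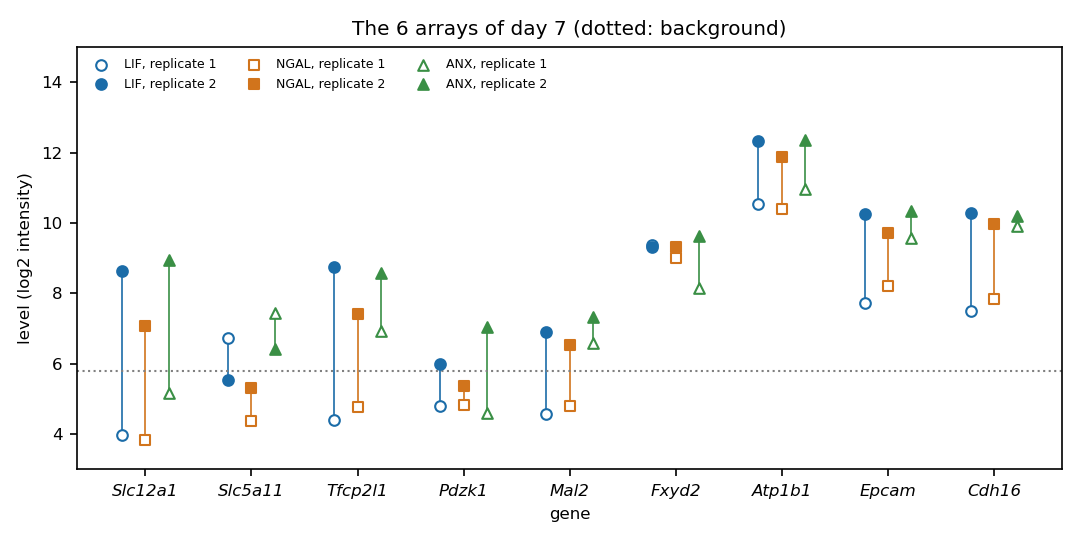
Level (log2 intensity) on each of the 6 arrays of day 7 for Slc12a1, Slc5a11 and 7 other genes of tubule epithelium or of transport; open symbols are replicate 1, filled symbols replicate 2, a line joins the 2 replicates of an inducer, and the dotted line is background. Slc12a1 and Tfcp2l1 are above background in all 3 replicates numbered 2, while Slc5a11 is higher in replicate 1 with LIF and ANX.

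Slc5a11, a sodium-coupled carrier of myo-inositol, rose late as well, but with another pattern over arrays. It was 4.41 and 4.52 in fresh tissue and between 4.18 and 4.51 in the 4 controls. With ANX it reached 5.86 and 6.84 on day 5 and 7.43 and 6.42 on day 7, with LIF 6.73 and 5.53 on day 7, and with NGAL 4.38 and 5.31 on day 7. The 4 late ANX arrays were all above background, while both NGAL arrays of day 7 were below it. Slc5a11 passed the filter through the 3 groups with a mean above background, LIF on day 7 and ANX on days 5 and 7. From day 1 to day 7 with ANX, Slc5a11 rose by 2.04 (SE 0.41, adjusted p 0.00201 by limma, floored 1.14). Without ANX day 7 replicate 1 the difference was 1.54 and missed the threshold at an adjusted p of 0.0514. Late cultures exceeded early ones by 0.96 (SE 0.17, adjusted p 0.000123 by limma, floored 0.34), and by 0.81 without day 7, still called. The genes most like it over the 21 group means were Thy1 (r 0.945), Tst (r 0.938) and Rhpn1 (r 0.934).

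Slc5a3, a carrier of osmolytes, had the widest range among the carriers above background in every group. Of 3 osmolyte carriers listed, 2 were on the array, Slc5a3 and Slc6a6, and both were called higher in culture. Slc5a3, the other sodium-coupled carrier of myo-inositol, was 6.93 and 6.86 in fresh tissue. In controls it was 9.23 and 8.17 on day 1 and 9.41 and 9.36 on day 2. On day 7 it was 10.68 and 10.22 with LIF, 9.91 and 10.69 with NGAL and 8.95 and 9.96 with ANX. All 40 arrays of cultured tissue were therefore above both fresh arrays, although within the cultures the levels spread from 7.18 to 10.69. Day 7 exceeded fresh tissue by 3.17 (SE 0.60, adjusted p 0.000246 by limma), which is 9.02-fold, and late induced cultures exceeded early ones by 1.08 (SE 0.30, adjusted p 0.00796 by limma). Without day 7 the latter difference was 0.42 and not called.

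The difference of Slc5a3 between control day 2 and fresh tissue was 2.49 (SE 0.74, adjusted p 0.0185 by limma). It lost its call without any 1 of the 4 arrays compared, and it fell to 1.47 when the spike-in ratio entered the model. That ratio was 1.06 and 1.08 in fresh tissue and 1.97 and 2.04 on control day 2. The other probe set of Slc5a3 stayed below background, with a highest group mean of 4.95, and averaging both gave 1.65 for day 7 against fresh tissue, still called.

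Slc6a6, the carrier of taurine, rose at once in culture, with or without an inducer. Its levels were 8.05 and 7.99 in fresh tissue, 8.99 and 9.49 on control day 1 and 9.14 and 9.0 on control day 2. Induced cultures lay between 8.89 and 10.79, so no cultured array overlapped fresh tissue. The difference was 1.22 (SE 0.23, adjusted p 0.00187 by limma) for control day 1, 1.05 (SE 0.23, adjusted p 0.00252) for control day 2 and 2.12 (SE 0.19, adjusted p 7.54e-09) for day 7. These 3 calls held without each array in turn. The other probe set of Slc6a6 gave 1.93, 2.68 and 3.41 for the same comparisons.

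Among the inducers, Slc6a6 was higher with ANX than in controls over days 1 and 2, by 0.75 (SE 0.16, adjusted p 0.00233 by limma), and NGAL was lower than ANX over 6 days by 0.46 (SE 0.09). Both of these calls ended when the 2 probe sets were averaged, and the other probe set gave 0.07 for NGAL against ANX, the opposite sign. With LIF, Slc6a6 was also called higher than in controls, by 0.46. The other probe set gave 0.06 for LIF and 0.20 for ANX against controls. Late induced cultures exceeded early ones by 0.48 (SE 0.09, adjusted p 0.000425). The genes most like Slc6a6 were Sdc4 (r 0.938), Ier3 (r 0.937) and Slmap (r 0.931).

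**Figure D3:**
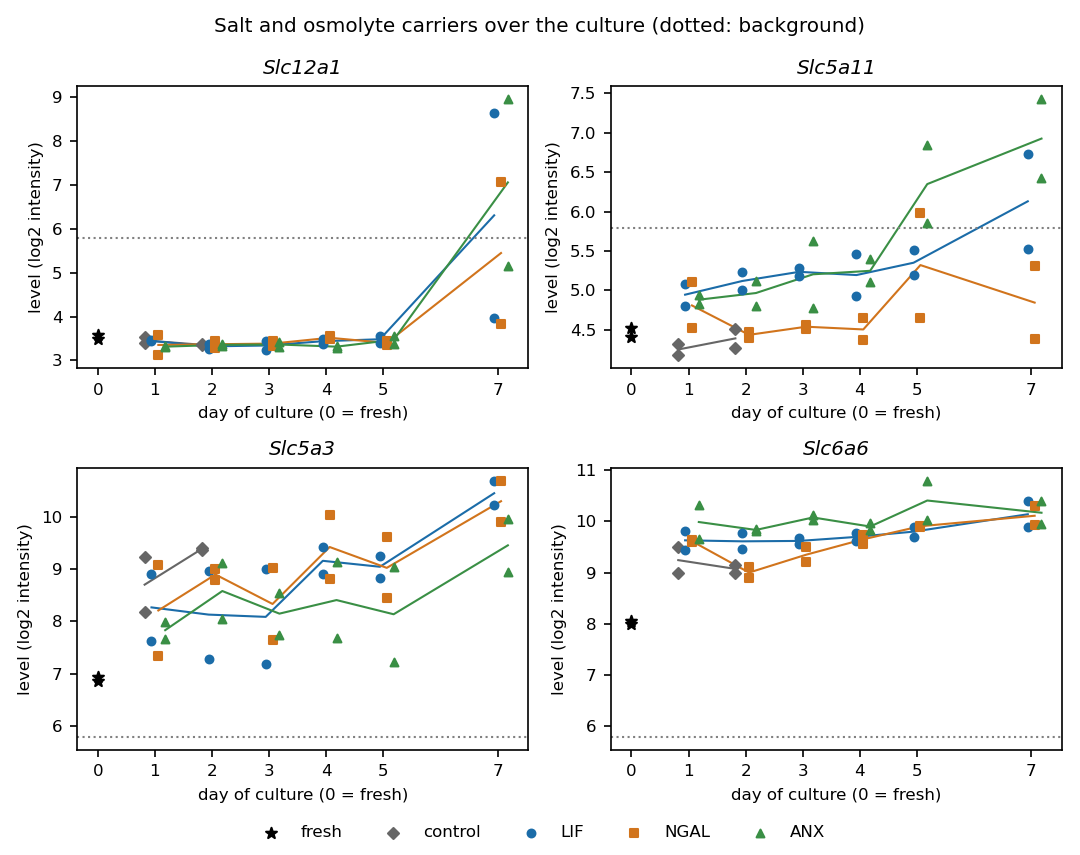
Level (log2 intensity) of Slc12a1, Slc5a11, Slc5a3 and Slc6a6 against day of culture, with 1 point per array, lines through group means by inducer, and background dotted. Slc12a1 is flat until day 7, Slc5a11 climbs in ANX and LIF cultures, and Slc5a3 and Slc6a6 lie above fresh tissue in every cultured group.

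Few other carriers were called in culture without an inducer, where 2 arrays were set against 2 and small shifts could be missed. On control day 1, 2 of the 58 were called against fresh tissue, 1 higher and 1 lower, which is 3.45% where 6.06% of all genes were called (3.8% higher and 2.26% lower). On control day 2, 7 were called, 3 higher and 4 lower, or 12.1% where 22.2% of all genes were called (9.47% higher and 12.7% lower). The median difference of the 58 was -0.10 on day 1 and 0.01 on day 2, and that of all genes 0.00 and -0.05. Slc4a7, a sodium bicarbonate carrier, was 9.58 and 9.45 in fresh tissue and 8.55 and 8.65 on control day 2. That fall was by 0.92 (SE 0.21, adjusted p 0.00359 by limma), and it was no longer called when its 2 probe sets were averaged. Slc22a5, which imports carnitine, fell by 0.65 (SE 0.17, adjusted p 0.00825), a call that held without control day 2 replicate 1 but not without either fresh array or control day 2 replicate 2. Slc12a4, a potassium-chloride carrier, rose by 0.47 (SE 0.16, adjusted p 0.0338), a call lost without any 1 of the 4 arrays.

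Slc4a1, the anion exchanger of red cells and, in a shorter form, of acid-secreting collecting duct cells, was lower after culture. It was 7.21 and 7.25 in fresh tissue, 6.42 and 6.86 on control day 1, 6.66 and 6.66 on control day 2, and between 6.40 and 7.02 on day 7. Fresh tissue stood above all cultured arrays of these groups. The fall was by 0.59 (SE 0.17), by 0.57 (SE 0.17) and by 0.60 (SE 0.14, adjusted p 0.00159 by limma). Only the last held without each array in turn, and the first 2 ended without either fresh array. The other probe set of Slc4a1 fell by 0.64 and by 1.28 in the controls. The summed intensity of 12 erythroid markers was 30405 and 33306 in fresh tissue, 9040 to 16195 in controls and 1177 to 2098 on day 7, with Hbe2 and Epb42 below background on every array. Of 9 erythroid markers tested, 6 were lower on day 7 than in fresh tissue and none higher, where 18.6% of all genes were lower and 15.9% higher. The part of these markers in the result was not tested.

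With LIF or ANX over days 1 and 2, about as large a share of the carriers was called as of all genes. Against controls, 13 of the 58 were called with LIF, 8 higher and 5 lower, or 22.4% where 24% of all genes were called (11.4% higher and 12.6% lower). With ANX 11 were called, 8 higher and 3 lower, or 19% where 20.3% of all genes were called (11.2% higher and 9.12% lower). With NGAL none was called by limma where 0% of all genes were, although 8 of the 58 and 799 of all genes had an unadjusted p under 0.05, and the lowest adjusted p among the 58 was 0.392. The same 4 control arrays entered all 3 comparisons. The median difference of the 58 was 0.04 for LIF, 0.03 for NGAL and 0.08 for ANX, and that of all genes 0.03, 0.01 and 0.03.

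Slc7a7, which with Slc3a2 exports cationic amino acids across the basolateral membrane, had the largest difference from controls with LIF and with ANX. It was 8.32 and 8.19 in fresh tissue and 6.24, 7.39, 7.00 and 6.31 in the 4 controls. With LIF it was 9.28 and 9.27 on day 1 and 8.82 and 8.37 on day 2. With ANX it was 9.22 and 8.94 on day 1 and 8.66 and 9.05 on day 2, and with NGAL 8.28, 8.96, 6.56 and 7.82 over the 2 days. The LIF and ANX arrays all lay above all controls, and 1 of the 4 NGAL arrays overlapped them. The difference from controls was 2.20 with LIF (SE 0.38, adjusted p 0.000262 by limma) and 2.23 with ANX (SE 0.38, adjusted p 0.000272). Both calls held without each array in turn and on each day alone. With NGAL the difference was 1.17 (SE 0.38) at an adjusted p of 0.447.

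Slc7a7 in controls was also below fresh tissue on day 2, by a difference of -1.60 (SE 0.54, adjusted p 0.0339 by limma), a call lost without any 1 of the 4 arrays and with the spike-in ratio in the model. The array's signal for 5S ribosomal RNA also differed between these groups, at a log2 mean of 6.47 in fresh tissue, 8.11 and 10.21 on control days 1 and 2, 6.97 and 9.50 on NGAL days 1 and 2, and 7.01 to 8.01 with LIF or ANX on those days. Its part in the results for Slc7a7 and the other carriers was not tested. The genes most like Slc7a7 over the 21 group means were Utp4 (r 0.944), Shmt2 (r 0.942), Mapk6 (r 0.941), Fgfrl1 (r 0.938) and Fbl (r 0.934). Shmt2 is a mitochondrial enzyme of serine and glycine metabolism, and Utp4 and Fbl are proteins of ribosome assembly.

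Slc12a2, the sodium-potassium-chloride carrier that most cells use to regain volume, was lower with these 2 inducers. The 4 controls lay between 10.66 and 11.04, the 4 LIF arrays of days 1 and 2 between 9.46 and 10.05, and the 4 ANX arrays between 9.79 and 10.47. Neither group overlapped the controls. The difference was -0.99 with LIF (SE 0.14, adjusted p 3.66e-05 by limma) and -0.71 with ANX (SE 0.14, adjusted p 0.00117), and both calls held without each array in turn. Slc4a7 was higher than in controls by 0.73 with LIF (SE 0.15, adjusted p 0.00112) and by 0.95 with ANX (SE 0.15, adjusted p 0.000131), although with LIF the call ended when its probe sets were averaged. Slc22a5 was higher by 0.49 with LIF and by 0.44 with ANX. Without control day 1 replicate 1 neither was called, and the ANX call ended in 3 further cases, without control day 2 replicate 2 or without replicate 1 of ANX on day 1 or on day 2. Slc22a23 was lower by a difference of -0.84 (floored -0.21) with LIF and -0.54 (floored -0.21) with ANX, at mean levels of 5.16 and 5.46, below background.

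The summed intensity of 9 stroma markers also differed between these groups, 18219 to 21401 in controls against 7496 to 11158 with LIF and 9339 to 11361 with ANX, with none of the markers below background on every array. Of the 9, 6 were called lower with LIF and 5 with ANX, where 12.6% and 9.12% of all genes were. The part of these markers in the results for Slc12a2 and the other carriers was not tested.

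Cells short of amino acids switch on a set of genes through the transcription factor Atf4, among them importers of the missing amino acids. All 5 listed members of this kind were on the array and above background in some group: Slc7a1 and Slc7a3, which import cationic amino acids, Slc7a5, which imports large neutral ones with Slc3a2, Slc7a11, which imports cystine for glutathione, and Slc6a9, a glycine carrier. The promoters of 3 of them are shown for their letters in the window of 250 bases before to 50 after the start of the gene, from RefSeq on assembly GRCr8, in the direction of transcription. Capitals mark TGATGNAA, the core of the amino acid response element, which was searched on both strands.

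Slc7a1, chr12:11664238-11664537, + strand: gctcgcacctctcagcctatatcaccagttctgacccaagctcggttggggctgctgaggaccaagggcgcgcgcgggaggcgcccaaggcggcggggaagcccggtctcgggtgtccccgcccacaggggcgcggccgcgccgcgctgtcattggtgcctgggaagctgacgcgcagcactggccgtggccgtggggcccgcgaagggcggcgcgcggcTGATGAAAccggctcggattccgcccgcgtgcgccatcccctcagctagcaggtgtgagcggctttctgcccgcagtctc
Slc7a5, chr19:66872363-66872662, - strand: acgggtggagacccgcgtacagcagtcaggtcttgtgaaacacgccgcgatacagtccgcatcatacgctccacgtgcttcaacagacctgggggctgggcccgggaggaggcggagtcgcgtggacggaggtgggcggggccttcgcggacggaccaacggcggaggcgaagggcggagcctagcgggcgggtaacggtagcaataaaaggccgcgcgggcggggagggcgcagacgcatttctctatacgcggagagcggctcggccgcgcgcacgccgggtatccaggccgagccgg
Slc7a11, chr2:136668215-136668514, - strand: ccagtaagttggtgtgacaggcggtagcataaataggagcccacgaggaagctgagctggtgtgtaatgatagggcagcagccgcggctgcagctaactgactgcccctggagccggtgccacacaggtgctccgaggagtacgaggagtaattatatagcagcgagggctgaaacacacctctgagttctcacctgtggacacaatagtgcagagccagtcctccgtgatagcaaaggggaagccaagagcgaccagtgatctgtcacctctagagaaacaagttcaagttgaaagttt

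Slc7a1 holds the core once, as TGATGAAA, with its first base 30 bases before the start, and the windows of Slc7a5 and Slc7a11 do not hold these letters. Of 33469 promoters of this length, 3.98% hold the core. Of the 94 genes, 79 have a promoter in the table and 2 hold the core, Slc7a1 and Slc9a9, the latter named after its sequence was seen. Of the 17 genes of the amino acid list, members and others, 15 have a promoter and 4 hold it. A match is a description of the letters and not of a site in use.

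With ANX, 3 of the 5 were called higher than in controls over days 1 and 2, where 11.2% of all genes were, at a median of 1.01 for the 5 against 0.03 for all genes. Slc7a1 was 8.31, 8.36, 8.87 and 8.33 in controls and 9.34, 9.41, 9.60 and 9.74 with ANX, with no overlap. The difference was 1.06 (SE 0.25, adjusted p 0.00395 by limma), held without each array in turn, and was 0.58 when the probe sets were averaged, still called. Slc7a3 was 6.16, 6.45, 7.10 and 6.38 in controls and 7.2, 7.57, 8.09 and 8.05 with ANX. The difference was 1.20 (SE 0.37, adjusted p 0.0249 by limma), and the call ended without control day 1 replicate 1, control day 2 replicate 2, ANX day 1 replicate 2 or either ANX array of day 2. Slc7a5 was 7.11, 6.94, 7.58 and 6.98 in controls and 8.21, 7.89, 8.47 and 8.11 with ANX. Its difference was 1.01 (SE 0.33, adjusted p 0.0299 by limma), and the call ended without either control array of day 1, control day 2 replicate 2, or replicate 1 of ANX on day 1 or on day 2. The groups did not overlap for any of these 3 genes.

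With LIF the member of this group that was called was Slc7a11. Controls lay between 5.34 and 5.73, below background, and LIF gave 7.55 and 7.74 on day 1 and 6.35 and 6.93 on day 2. The difference was 1.59 (SE 0.37, adjusted p 0.00361 by limma, floored 1.35) and was called without each array in turn, but not on day 2 alone. Slc7a1 with LIF differed from controls by 0.46 (SE 0.25, adjusted p 0.179) and Slc7a5 by 0.24 (SE 0.33, adjusted p 0.631), neither called. Slc7a11 with ANX differed by 0.97 (SE 0.37, adjusted p 0.0675), also not called, with a floored difference of 0.73. Whether LIF and ANX differed in these effects over days 1 and 2 was not tested.

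With LIF these levels spread widely between days and replicates. Slc7a3 with LIF was 6.89 and 6.09 on day 1 and 8.75 and 9.87 on day 5, and Slc7a5 was 7.85 and 7.2 on day 1 and 8.15 and 8.86 on day 5. On day 7 the 2 LIF replicates were far apart, 8.93 and 6.84 for Slc7a3 and 8.74 and 7.23 for Slc7a5, and the second value of each lay within the range of day 1. Neither was called from day 1 to day 7 with LIF, at adjusted p of 0.0904 and 0.562 by limma. On day 7 the mean of the 3 inducers was above fresh tissue by 0.88 for Slc7a1 (SE 0.28), 1.28 for Slc7a3 (SE 0.43), 1.46 for Slc7a11 (SE 0.43, floored 1.17) and 0.80 for Slc6a9 (SE 0.20, adjusted p 0.00314 by limma), 4 of the 5 members. Of all genes, 15.9% were called higher in that comparison. All 4 calls of these members ended without fresh replicate 2. Those of Slc7a3 and Slc7a11 ended without fresh replicate 1 too, and that of Slc7a3 also without LIF or ANX day 7 replicate 1. Their highest adjusted p over the arrays left out was 0.225 for Slc7a1, 0.155 for Slc7a3, 0.117 for Slc7a11 and 0.0606 for Slc6a9. The call of Slc6a9 also ended when its probe sets were averaged, and that of Slc7a11 with the day 7 arrays numbered 2 left out, at 1.09.

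Other genes of the same response were called too. Of 12 that are not members, 6 were called higher with ANX than in controls and none lower, where 11.2% of all genes were higher, among them Slc1a5, a glutamine carrier, by 1.71 (SE 0.24), Phgdh by 1.23 (SE 0.23) and Psat1 by 1.25 (SE 0.25), which make serine, and Asns, which makes asparagine, by 0.98 (SE 0.25). On day 7 against fresh tissue 9 of the 12 were higher and none lower, where 15.9% of all genes were higher, among them Slc38a2 (1.09, SE 0.15) and Asns (1.80, SE 0.29). Without an inducer, on control day 2, 4 of the 12 were higher than in fresh tissue and 1 lower, where 9.47% and 12.7% of all genes were. Their median was 0.56 against -0.05 for all genes, and 0 of the 5 members were called there. The part of culture alone in the day 7 rise was not tested. Over the 21 group means, Slc7a5 was most like Slc3a2 (r 0.958), its partner in the membrane. Psat1, Asns and Gars1 were also among the 5 genes most like Slc7a5.

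**Figure D4:**
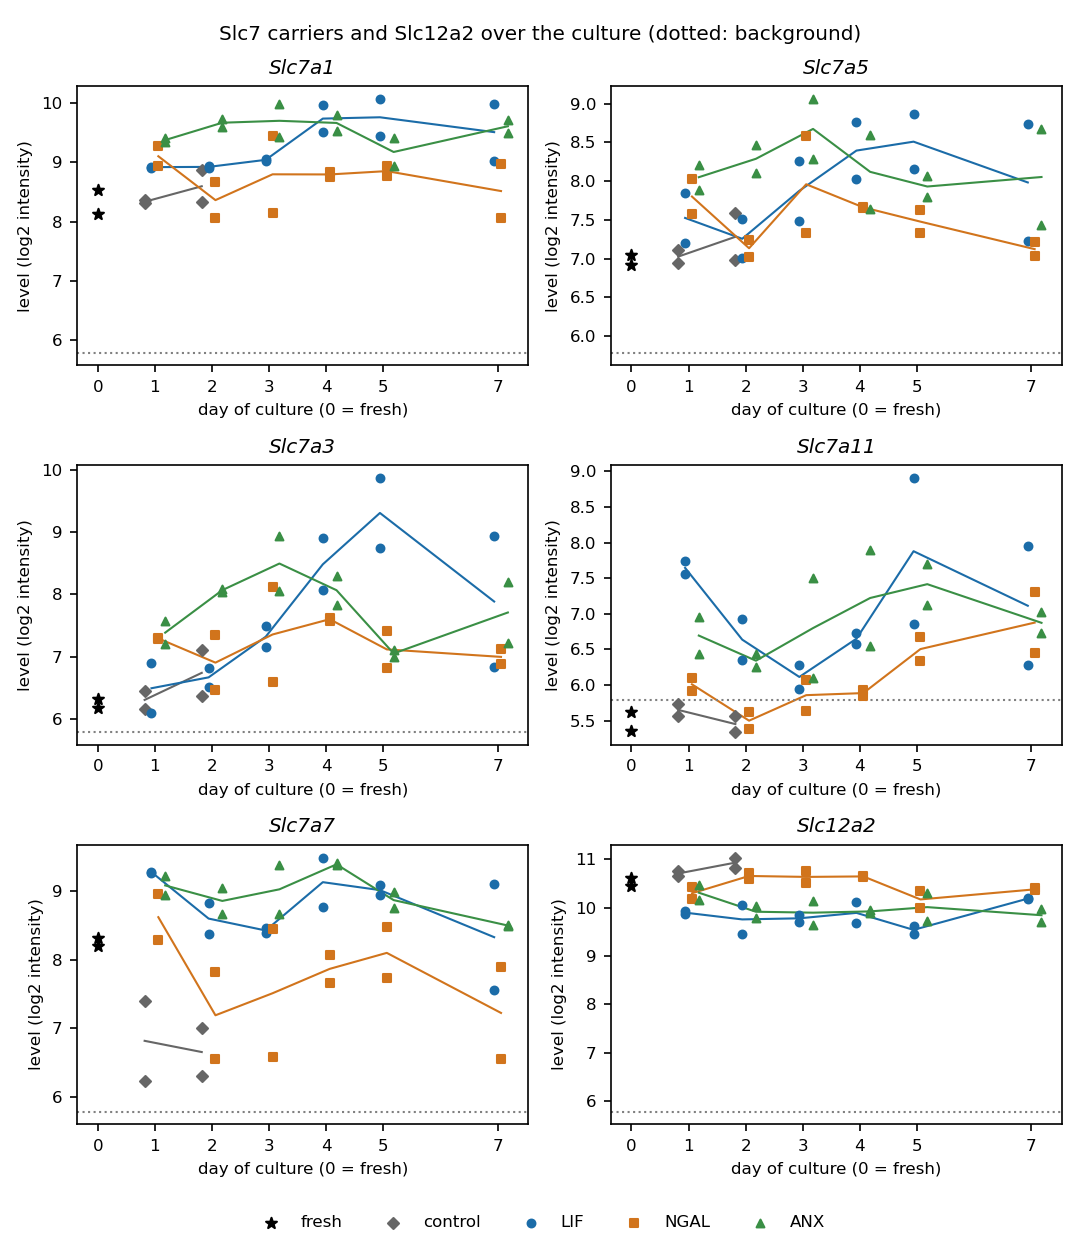
Level (log2 intensity) of 5 Slc7 carriers and of Slc12a2 against day of culture, with 1 point per array, lines through group means by inducer, and background dotted. Slc7a7 has its lowest group mean on control day 2, Slc7a1 is higher with ANX than in controls, and Slc12a2 is lower with LIF than with NGAL on all 6 days.

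Slc7a7, Slc7a11 and Slc7a1 were lower, and Slc12a2 and Slc22a15 higher, with NGAL than with either other inducer. Over the 6 days, 17 of the 58 were called between LIF and NGAL, 9 higher and 8 lower with LIF, or 29.3% where 41.7% of all genes were called (21.5% higher and 20.3% lower). Between NGAL and ANX 19 were called, 6 higher and 13 lower with NGAL, or 32.8% where 37.5% of all genes were called (15.3% higher and 22.2% lower). Between LIF and ANX none was called by limma, where 5.01% of all genes were (1.63% higher and 3.37% lower with LIF). Of the 58, 6 had an unadjusted p under 0.05, and the lowest adjusted p was 0.0526. That value belonged to Slc22a15, with a difference of -0.24 (SE 0.07). The median differences of the 58 were 0.04, -0.03 and -0.01, and those of all genes 0.03, -0.04 and -0.01. The NGAL arrays entered the first 2 comparisons alike, so their values are given side by side.

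Slc7a7 showed the largest of these differences. Over 12 arrays each, it ran from 7.55 to 9.49 with LIF (median 8.88), from 6.55 to 8.96 with NGAL (median 7.86) and from 8.49 to 9.40 with ANX (median 8.96). The NGAL arrays reached lower than any LIF or ANX array, with overlap at the top. LIF exceeded NGAL by 1.04 (SE 0.22, adjusted p 0.000514 by limma), and NGAL differed from ANX by -1.20 (SE 0.22, adjusted p 0.0002), in each case on 6 of 6 days.

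Slc7a11 ran from 5.94 to 8.91 with LIF (median 6.79), from 5.38 to 7.30 with NGAL (median 6.0) and from 6.09 to 7.90 with ANX (median 6.84). LIF exceeded NGAL by 0.90 (SE 0.22, adjusted p 0.0017, floored 0.85), on 6 of 6 days, and NGAL differed from ANX by -0.79 (SE 0.22, adjusted p 0.00635, floored -0.74), lower on 5 of 6 days. Slc7a1 gave 0.58 (SE 0.14) and -0.79 (SE 0.14, adjusted p 0.000163), which became 0.38 and -0.42 with its probe sets averaged, both still called. Slc7a5 was lower with NGAL than with ANX by a difference of -0.66 (SE 0.19, adjusted p 0.00849). Slc7a3 gave -0.59 (SE 0.22, adjusted p 0.0362), but 12 of the 24 left-out arrays ended that call, and the values without them ran from -0.71 to -0.46. Of the 12 other amino acid response genes, 6 were called higher and 1 lower with LIF than with NGAL, where 21.5% and 20.3% of all genes were. Between NGAL and ANX, 6 of the 12 were lower with NGAL, where 22.2% of all genes were.

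Slc12a2 went the other way. It ran from 9.45 to 10.19 with LIF (median 9.87), from 9.99 to 10.77 with NGAL (median 10.47) and from 9.65 to 10.47 with ANX (median 9.97). LIF was below NGAL on each of the 6 days with no overlap between the 2 replicates of either, and the mean difference was -0.62 (SE 0.08, adjusted p 3.47e-06 by limma). NGAL exceeded ANX by 0.48 (SE 0.08, adjusted p 9.34e-05), on 5 of 6 days. The genes most like Slc12a2 over the 21 group means were Maml2 (r 0.931), Irag1 (r 0.926), Tcim (r 0.925), Gli2 (r 0.922) and Slc2a13 (r 0.922).

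Slc22a15 was also lower with LIF than with NGAL on 6 of 6 days without overlap, by a difference of -0.57 (SE 0.07, adjusted p 1.78e-06 by limma), and higher with NGAL than with ANX by 0.34 (SE 0.07). Slc4a2, a chloride-bicarbonate exchanger of the basolateral membrane, was lower with LIF than with NGAL by a difference of -0.50 (SE 0.09, adjusted p 7.98e-05), on 6 of 6 days. Its difference between NGAL and ANX, 0.23 (SE 0.09, adjusted p 0.0385), lost its call without any of 13 of the 24 arrays. Slc12a4 and Slc5a6, the carrier of biotin and pantothenate, were lower with LIF than with NGAL by differences of -0.34 (SE 0.06) and -0.30 (SE 0.07), and higher with NGAL than with ANX by 0.26 (SE 0.06) and 0.27 (SE 0.07). Slc12a7, another potassium-chloride carrier, gave 0.47 (SE 0.10) and -0.46 (SE 0.10). Its other probe set gave 0.04 and -0.24.

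Slc5a11 gave 0.59 (SE 0.17, floored 0.06) for LIF against NGAL and -0.85 (SE 0.17, floored -0.28) for NGAL against ANX, at levels mostly below background. Of the 10 members that serve cell pH and volume, 5 were called lower and 1 higher with LIF than with NGAL, where 20.3% and 21.5% of all genes were, at a median of -0.16 against 0.03 for all genes. Between NGAL and ANX, 4 of them were called higher and 3 lower with NGAL, where 15.3% and 22.2% of all genes were. Both counts include Slc9a9, with differences of -0.35 and 0.24. Slc9a9 was above background in 1 group alone, NGAL on day 2 (5.80), so its calls are not independent of the filter. Its other probe set, below background, gave 0.08 and -0.07, the opposite signs. Slc34a1 was called in both comparisons as well, with differences of 0.13 and -0.14 that became 0.02 and -0.01 when floored.

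Markers of other cell types differed between these cultures. The summed intensity of the 9 stroma markers was 12841 to 24216 with NGAL, 5609 to 11835 with LIF and 5067 to 16929 with ANX. That of 8 skeletal muscle markers was 2224 to 16146, 2311 to 6216 and 1937 to 3300, with Ckm below background on every array. Of the 9 stroma markers, 8 were called lower with LIF than with NGAL, and all 9 higher with NGAL than with ANX. Of 7 muscle markers tested, 5 were lower with LIF than with NGAL and all 7 higher with NGAL than with ANX. Of all genes, 20.3% were lower with LIF than with NGAL and 15.3% higher with NGAL than with ANX. The part of these markers in the results for the carriers was not tested.

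**Figure D5:**
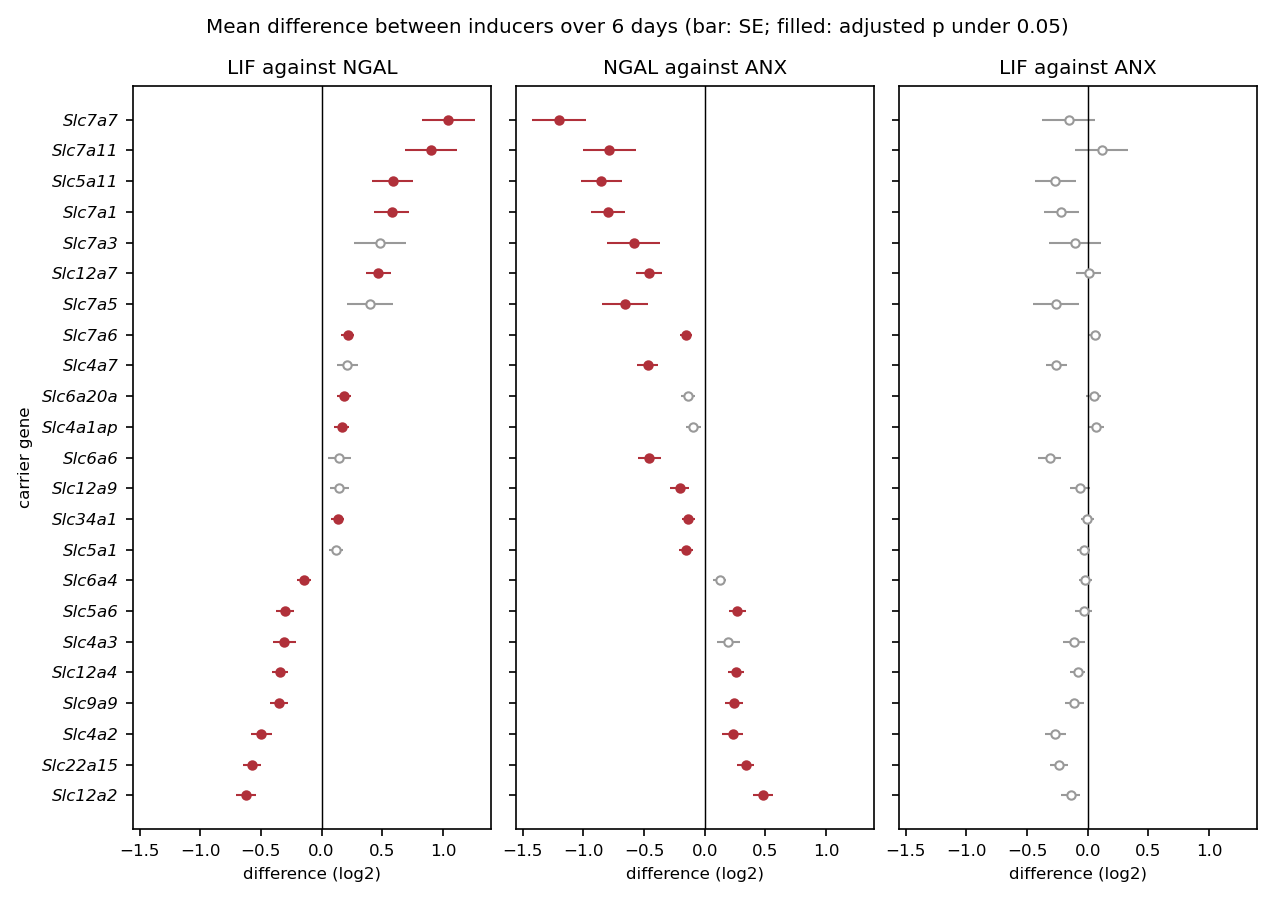
Mean difference over 6 days (log2, with its SE) between each pair of inducers for the 23 genes called in any of the 3 comparisons; filled points had an adjusted p under 0.05. Slc7a7, Slc7a11 and Slc7a1 are lower with NGAL than with either other inducer and Slc12a2 is higher, while no point is filled for LIF against ANX.

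Between late and early cultures, 12 of the 58 were called, 11 higher and 1 lower, or 20.7% where 31% of all genes were called (14.1% higher and 16.9% lower). The median difference of the 58 was -0.02 and that of all genes -0.03. Slc6a8, the creatine carrier, was the most regular. It ran from 7.99 to 8.28 on the 12 arrays of days 1 and 2 (median 8.09) and from 8.28 to 9.06 on the 12 of days 5 and 7 (median 8.65), so the 2 sets barely touched. The difference was 0.54 (SE 0.07, adjusted p 4.98e-06 by limma), held without each array in turn, and was called without day 7 too. From day 1 to day 7 Slc6a8 rose by 0.67 with LIF, by 0.76 with NGAL and by 0.67 with ANX (SE 0.18 each), called with all 3 inducers.

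Each of those 3 calls of Slc6a8 ended without some single arrays: LIF day 1 replicate 1 or 2 and LIF day 7 replicate 2; NGAL day 1 replicate 2; ANX day 1 replicate 1 or 2 and ANX day 7 replicate 2. Slc6a9 rose by 0.35 (SE 0.10, adjusted p 0.00964 by limma) from early to late culture, and by 0.23 without day 7, not called. Slc7a11 rose by 0.64 (SE 0.22, adjusted p 0.0262, floored 0.59), with values of 0.47 to 0.81 when 1 array was left out. That call ended without LIF day 2 replicate 1, without NGAL day 7 replicate 2, without replicate 2 of ANX on day 1 or on day 5, and without replicate 2 of LIF on day 5 or on day 7. With the day 7 arrays numbered 2 left out the difference was 0.45, not called. The 1 gene called lower was Slc7a6, a basolateral exchanger of cationic for neutral amino acids, with a difference of -0.19 (SE 0.05, adjusted p 0.00512).

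Markers of other cell types moved over the same time. Of 11 endothelial markers, 10 were called lower in late than in early culture, and their summed intensity was 1285 to 2813 early and 981 to 2253 late. Of the 9 stroma and 9 erythroid markers tested, 6 each were lower, and of 7 muscle markers 4 were higher and 1 lower. Of all genes, 14.1% were higher and 16.9% lower in late culture. The summed intensity, early and late, was 7496 to 18322 and 5067 to 22196 for stroma, 3692 to 11369 and 1177 to 2529 for erythroid cells, and 1937 to 3376 and 2514 to 10955 for muscle. Their part in the results for the carriers was not tested.

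Within 1 inducer, 2 of the 58 were called from day 1 to day 7 with LIF, 1 higher and 1 lower, where 10.9% of all genes were called (4.39% higher and 6.51% lower). With NGAL 4 were called, all higher, where 15.5% of all genes were (6.92% higher and 8.6% lower). With ANX 5 were called, 3 higher and 2 lower, where 13.8% of all genes were (6.4% higher and 7.43% lower). Slc6a8 was the gene called with all 3. The other genes called with NGAL were Slc12a8, Slc26a8, an anion carrier of sperm, and Slc22a15, by 0.68, 0.67 and 0.52. Each of these calls ended without NGAL day 1 replicate 2 and without NGAL day 7 replicate 1, that of Slc26a8 also without NGAL day 7 replicate 2, and that of Slc22a15 also without NGAL day 1 replicate 1. Against fresh tissue, 15 of the 58 were called on day 7, 12 higher and 3 lower, or 25.9% where 34.5% of all genes were (15.9% higher and 18.6% lower). None of the 58 was called in the moderated F-test of inducer by day, where 0.0351% of all genes were; 4 had an unadjusted p under 0.05 and the lowest adjusted p was 0.325.

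Some partners of the carriers rose from early to late culture. The partners listed are subunits, scaffolds, the sodium pump that drives sodium-coupled transport, and kinases. Of 15 tested, 7 were called higher in late than in early induced culture and none lower, where 14.1% of all genes were higher, at a median of 0.21 against -0.03 for all genes, and 8 were higher on day 7 than in fresh tissue, where 15.9% of all genes were. Fxyd2 and Atp1b1, subunits of the sodium pump, rose by 2.49 (SE 0.24, floored 2.25) and 2.19 (SE 0.20) from early to late culture, and Sgk1, a kinase that raises sodium transport, by 1.08 (SE 0.17). Slc3a1, the heavy chain of the cystine carrier of the proximal tubule, rose by 0.56 (SE 0.17). Its light chain Slc7a9 stayed between 3.77 and 4.22, below background on all 42 arrays. Oxsr1, a kinase that switches on Slc12a1 and Slc12a2, was higher with LIF than with NGAL by 0.85 (SE 0.12).

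Of 10 tested genes of the tubule that are not carriers, 7 were higher and 1 lower in late than in early culture, where 14.1% and 16.9% of all genes were, at a median of 1.23, with Epcam, an adhesion protein of epithelia, higher by 2.85 (SE 0.21, floored 2.57), Pax8 by 1.73 (SE 0.18), Cdh1, the epithelial cadherin, by 2.33 (SE 0.31, floored 0.90) and Lhx1 by 1.21 (SE 0.16, floored 1.01). The carriers of the proximal tubule, at a median of -0.05 and with 0 of 14 called, gave no call by limma over the same arrays, and 1 of the 14, Slc26a6, had an unadjusted p under 0.05. The other 12 proximal tubule carriers on the array were below background in all groups and were not tested, so changes at those levels were left out.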

How the data were processed

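RNA of 42 samples was hybridised to 1 Affymetrix Rat Genome array each. The deposited intensities are probe set summaries by RMA on a linear scale, per the series design and the submitters' processing notes, with no version given. They ran from 7.6 to 17972, and log2 was taken here. Of 31099 probe sets, 20832 had 1 gene symbol in the platform annotation, 436 several and 9831 none, which gave 14218 genes, of which 14168 matched RefSeq by Entrez number. Tests covered the 11388 genes with at least 1 group mean above an intensity of 55.2, the 40th percentile.

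A model of 21 group means with 21 residual degrees of freedom was fitted with limma 3.58.1 in R 4.3.3, with an intensity trend in eBayes, and 14 comparisons were drawn from it. With 2 arrays a group, the number of arrays limits the precision. Of 200 genes changed in simulated data, 84% of those shifted by 1 and 48% of those shifted by 0.5 were recovered for LIF against control. For late against early culture these shares were 98% and 88%. Comparisons of 2 arrays against 2 recovered fewer small shifts, with 63% and 19% for LIF day 7 against day 1. For control day 2 against fresh tissue the shares were 78% and 12%. The simulated noise had 1 spread per gene for all groups and no link between arrays. In the data, the SD of the difference between replicates was 0.18 in fresh tissue and 0.60 for LIF on day 7. The shares may therefore not hold for day 7. Tables and figures were made with Python 3.11.15, numpy 2.4.6 and pandas 2.3.3.

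The carriers and the gene lists were chosen with earlier results of these data known. The text names, per comparison, up to 10 called carriers in each direction, a fixed set of nephron segment, pH, amino acid and osmolyte carriers, up to 5 genes most like a described carrier, and up to 4 called genes per list. Slc7a9, Slc26a6, Umod and Kcnj1 were chosen after seeing their values. The alternatives tried were no filter on dim probe sets, renewed quantile normalization, averaged probe sets, only the arrays compared, a replicate block, the spike-in ratio as a covariate, single days, and each array left out. The labels give the groups the same replicate numbers. Deviations of same-numbered arrays from their group means correlated at -0.65 to 0.74 over 210 pairs of groups (median 0.07), over 0.1 in 88, so the numbers were not taken to pair the samples. Whether same-numbered arrays of the same day, such as day 7, were handled together was not tested. The SEs of the full model treat them as independent.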

Additional observations from a re-analysis of the deposited data

How the results depend on the processing

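No called difference changed direction under any alternative run. The number of carriers called, leaving out each array in turn, ran from 1 to 4 for control day 1 against fresh tissue, 2 to 3 for control day 2, 7 to 13 for LIF and 7 to 12 for ANX against controls, and 0 to 0 for NGAL. From day 1 to day 7 it ran from 0 to 3 for LIF, 0 to 6 for NGAL and 1 to 4 for ANX. It was 8 to 13 for late against early culture, 7 to 16 for day 7 against fresh tissue, 14 to 20 for LIF against NGAL, 0 to 3 for LIF against ANX and 14 to 22 for NGAL against ANX. The fits were least alike when only the arrays compared were used, which leaves few degrees of freedom: 13 carriers for control day 2 (5859 of all genes against 2527), 0 for LIF (30 against 1241), 0 for NGAL (144 against 1767) and 1 for ANX (586 against 1575) from day 1 to day 7, 3 for day 7 against fresh tissue (1972 against 3926) and 1 for LIF against ANX. With the spike-in ratio as a covariate, 4 were called for control day 2 (1673 of all genes), 8 for ANX from day 1 to day 7 and 1 for LIF against ANX. Against controls, LIF gave 4 on day 1 alone and 7 on day 2 alone, and ANX 1 and 5. For LIF against ANX, renewed quantile normalization gave 1 and the mean of probe sets 1. Without day 7, an alternative chosen after seeing the data, 7 were called for late against early culture (1694 of all genes against 3531). With the replicate block, 2 carriers were called for control day 1, 8 for control day 2, 13 for LIF against controls and 3 for LIF against ANX. For the changed counts other than those from fewer arrays, the cause was not tested. Levels near background, as in the proximal tubule genes, limit what could be seen.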
